A study of Homo sapiens with 3 samples.

Results

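Promoters with strong peaks of both RBPJ and L3MBTL3 were examined for 10 genes that are not components of the Notch pathway: SIPA1L2, MID2, CCDC102B, NAPG, UBE2D4, ZBTB18, SLC12A2, TPPP, TADA2B and DCLK2. They are 10 of 19748 annotated protein-coding genes. The genes were chosen by the deposited fold enrichments of both proteins at their promoters, so these folds are described here and not tested. For each gene, all RBPJ and L3MBTL3 peaks were taken whose summit, the position of highest signal, lay within 20 kb of one of its protein-coding transcription start sites (TSS). This gave 15 of 2926 RBPJ peaks and 16 of 444 L3MBTL3 peaks.

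The peaks come from chromatin immunoprecipitation followed by sequencing (ChIP-seq) in MDA-MB-231, a human breast cancer cell line with mesenchymal features. The series asked at which places in the genome both proteins are found. RBPJ-bound DNA was precipitated with the RBPSUH antibody of Cell Signaling and L3MBTL3-bound DNA with the anti-L3MBTL3 antibody of Bethyl, from the same line grown in RPMI1640 with 10% FBS and no stated treatment, with 1 library per antibody. An input DNA library of the series was not analysed here. Libraries were read for 50 cycles from a single end. With 1 library per antibody a fold has no replicate error, and the read counts behind single peaks are unknown.

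RBPJ (also CBF1 or CSL) is the DNA-binding protein of the Notch pathway. Without a Notch signal it recruits corepressors to its target genes, and on signalling the cleaved Notch receptor joins it and turns them on. L3MBTL3 is a chromatin protein with MBT domains, which read methylated lysines, and it was studied in this series as a partner of RBPJ that brings in the histone demethylase KDM1A. The 10 genes have other roles. MID2, CCDC102B, TPPP and DCLK2 act on microtubules or centrosomes, UBE2D4 and MID2 on ubiquitin, ZBTB18 and TADA2B on transcription, and SLC12A2, NAPG and SIPA1L2 in ion transport, membrane fusion and small GTPase signalling.

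RBPJ binds most tightly to the word CGTGGGAA or TGTGGGAA, here called the high-affinity word, which contains the core TGGGAA. The high-affinity word lay within 100 bp of the summit of the overlapping RBPJ peak at 4 of the 10 promoters, and in each case it was CGTGGGAA. These sites are shown first because they hold the word that RBPJ binds most tightly. The same windows held it at 24.4% of the 86 other RBPJ peaks within 1 kb of a TSS with a fold of at least 6.88. That is the lowest of the strongest RBPJ folds of the 10 genes. Each line gives 30 bases of GRCh37 (the sequence of hg19) around the site, 5′ to 3′ on the strand of the word, with the word in capitals.
MID2, chrX:107070020-107070049, minus strand: ggctgcgggagCGTGGGAAggcggccgtgc
CCDC102B, chr18:66382485-66382514, plus strand: acgcccaggagCGTGGGAAccctgcttaag
NAPG, chr18:10526004-10526033, minus strand: gcccaaataggCGTGGGAAcgccgaggagg
TPPP, chr5:692958-692987, minus strand: ccggtgtgaggCGTGGGAAattagggcgtg

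The word lay inside the peaks of both proteins in all 4. Its centre was 0.5 bp from the summit at NAPG, 1.5 bp at CCDC102B, 16.5 bp at TPPP and 31.5 bp at MID2. The L3MBTL3 summits were farther from it at NAPG (129.5 bp), TPPP (120.5 bp) and CCDC102B (15.5 bp), and nearer at MID2 (26.5 bp). The word pointed in the direction of transcription at CCDC102B and TPPP and against it at MID2 and NAPG, so the 4 sites shared no orientation.

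At 3 further promoters the window held the core TGGGAA without the high-affinity word. They are shown because the core lay 5.5 bp from the RBPJ summit at SIPA1L2 and 7.5 bp at TADA2B, as close as the full word at other promoters. At UBE2D4 the nearer core lay 46.5 bp away. The capitals mark the core, and at each of the 3 the full word is missed by 1 of its 8 letters. The core itself fixes most of these letters, and how often cores elsewhere come as close was not counted.
SIPA1L2, chr1:232766040-232766069, minus strand: cgccgcggggccTGGGAAcagcgcaccggc
TADA2B, chr4:7044947-7044976, plus strand: ttcaggaggctcTGGGAAaggcggcggtgg
UBE2D4, chr7:43966262-43966291, plus strand: gatacacctgccTGGGAAggaggcagaaca

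ZBTB18, SLC12A2 and DCLK2 had no core word within 100 bp of the summit of the RBPJ peak. The whole RBPJ peak of SLC12A2 is printed as an example of such a promoter, on the strand of the gene. It lies upstream of all annotated exons, and neither the core nor the high-affinity word occurs in it on either strand. It does hold CGTGGGAG, which differs from the high-affinity word in its last letter only. Near matches of this kind were not counted at any promoter.
SLC12A2, chr5:127419013-127419229, plus strand: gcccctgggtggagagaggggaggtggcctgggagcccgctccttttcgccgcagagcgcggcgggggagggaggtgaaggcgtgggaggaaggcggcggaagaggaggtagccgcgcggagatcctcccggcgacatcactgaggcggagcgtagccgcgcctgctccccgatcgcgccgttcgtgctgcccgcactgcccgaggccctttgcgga

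All 10 genes had at least 1 summit of each protein within 20 kb, and all 10 had an RBPJ peak overlapping an L3MBTL3 peak by at least 1 bp. Over all protein-coding genes, 14.2% had an RBPJ summit within 20 kb of a TSS, 1.91% an L3MBTL3 summit, 1.09% both and 0.714% an overlapping pair. With the RBPJ summit of the pair within 1 kb of a TSS, the share was 0.517%, and all 10 genes met this too. The genes were chosen for these peaks, so nothing is read from the counts. All 16 L3MBTL3 peaks and 14 of the 15 RBPJ peaks lay within 1 kb of a TSS of the gene.

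The strongest RBPJ peaks of the 10 genes had folds of 6.88 to 10.8 with a median of 8.95, against a median of 5.08 over the list. Of these, 9 were among the 100 highest of 2926. The strongest L3MBTL3 peaks had folds of 5.42 to 14.5 with a median of 7.31, against 5.57 over the list, and 7 were among the 100 highest of 444. The strongest peaks of both proteins exceeded their list medians at 9 genes. The exception was TADA2B, whose 1 L3MBTL3 peak had a fold of 5.42 and ranked 239, so the description of a high fold of both proteins holds there for RBPJ only. At TPPP the L3MBTL3 peak that overlaps RBPJ was also below the list median (fold 4.78, rank 349). The stronger L3MBTL3 peaks of TPPP did not overlap RBPJ. The lowest of the strongest RBPJ folds was the 6.88 of DCLK2. Beyond this set, 11 genes had an overlapping promoter pair with a higher RBPJ fold. Among them were HES4 (RBPJ 15.6, L3MBTL3 6.67) and HEY2 (8.86 and 11.7) of the HES and HEY repressor families, and RBPJ itself (7.57 and 12.3). The others were FLOT1 (8.19 and 4.54), JADE3 (7.30 and 6.78), ADAM19 (7.10 and 7.72), KDM1B, DAG1, WAPL, ROCK2 and DUSP22.

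**Figure D1:**
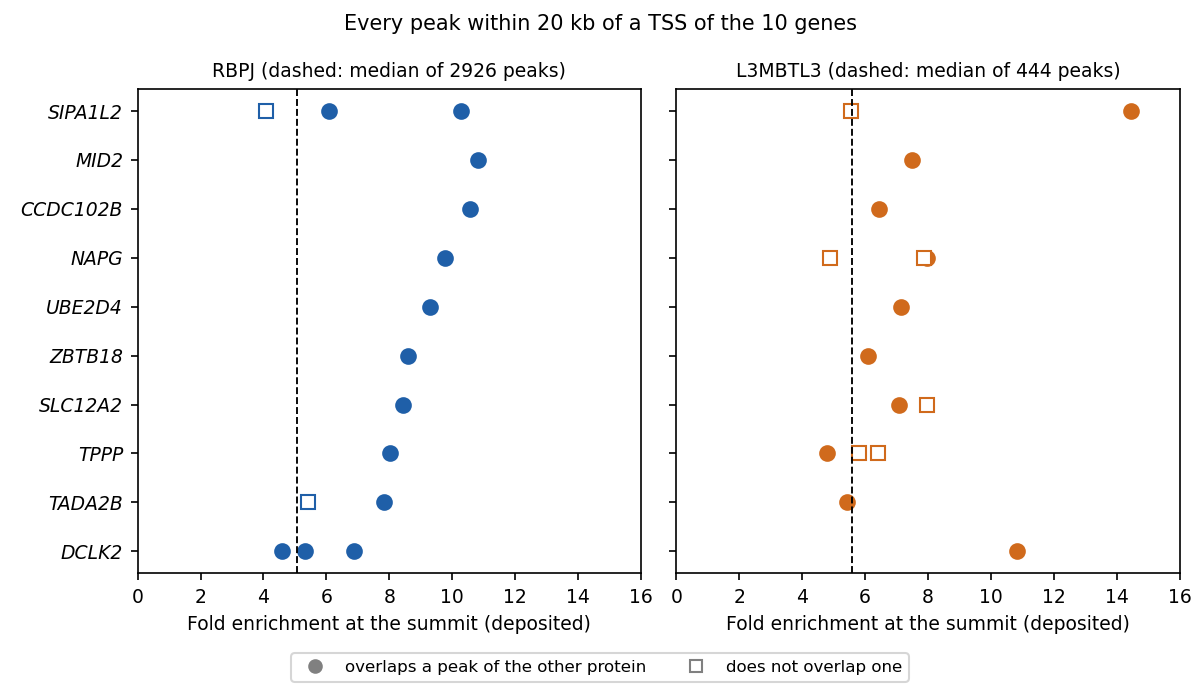
Fold enrichment at the summit of every RBPJ (left) and L3MBTL3 (right) peak within 20 kb of a TSS of the 10 genes. Each mark is 1 peak of 1 library, filled where it overlaps a peak of the other protein, and dashed lines are the medians of the whole lists (5.08 and 5.57). The strongest RBPJ peaks fall between 6.88 and 10.8, and the L3MBTL3 peaks of SIPA1L2 (14.5) and DCLK2 (10.8) stand above those of the other 8 genes.

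Among the genes of microtubules and centrosomes, MID2 had the highest RBPJ fold. MID2 encodes a ubiquitin ligase of the TRIM family that binds microtubules (ENSG00000080561.14, chromosome X, plus strand). Its 1 RBPJ peak (107069877 to 107070164, fold 10.8, -log10 q 19.9) ranked 12 of 2926, and its 1 L3MBTL3 peak (107069793 to 107070135, fold 7.48, -log10 q 6.68) ranked 34 of 444. Both summits lay in an intron of MID2, 359 and 417 bp downstream of the nearest TSS and 58 bp from each other. The nearest TSS of another protein-coding gene was that of NCBP2L, 49.0 kb away.

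The MID2 window was the only one of the 10 with RBPJ words facing each other. A core TGGGAA on the plus strand was followed, after 14 bp, by the high-affinity word on the minus strand. RBPJ sites facing each other at a set spacing are a known arrangement at some Notch target genes, where 2 complexes can bind side by side. Whether the MID2 pair is such a site was not tested, and facing pairs at other promoters were not counted. Its core on the plus strand lies in TCTGGGAA, which matches 7 letters of the high-affinity word. The whole RBPJ peak is printed on the plus strand to show the pair, with the core and the reverse complement of the high-affinity word in capitals. Pairs of core words at UBE2D4, TPPP and TADA2B faced apart, with 103, 27 and 34 bp between them.
MID2, chrX:107069877-107070164, plus strand: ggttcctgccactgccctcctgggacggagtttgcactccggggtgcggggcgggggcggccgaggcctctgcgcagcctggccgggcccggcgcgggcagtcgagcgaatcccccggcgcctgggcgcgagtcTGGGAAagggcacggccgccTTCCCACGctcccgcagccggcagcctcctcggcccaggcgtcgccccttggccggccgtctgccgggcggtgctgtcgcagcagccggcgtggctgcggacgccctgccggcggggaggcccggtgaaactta

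CCDC102B encodes a coiled-coil protein of the centrosome (ENSG00000150636.17, chromosome 18, plus strand). Its RBPJ peak (66382297 to 66382537, fold 10.6, -log10 q 15.3) ranked 15 and its L3MBTL3 peak (66382402 to 66382513, fold 6.43, -log10 q 3.90) ranked 98. The L3MBTL3 peak lay wholly inside the RBPJ peak, and the summits were 14 bp apart in a 5′ UTR. Both peaks sat at the outermost starts of the gene. The canonical start in the annotation lies 82819 bp farther along the gene and had no peak within 20 kb. The promoter is shared with TMX3, which encodes a disulfide isomerase of the endoplasmic reticulum and is transcribed the other way from a TSS 167 bp from that of CCDC102B. The peaks do not tell which of the 2 genes they belong to.

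TPPP encodes tubulin polymerization-promoting protein, known from oligodendrocytes (ENSG00000171368.12, chromosome 5, minus strand). Its 1 RBPJ peak (692914 to 693080, fold 8.01, -log10 q 10.2) ranked 69 and had its summit 511 bp downstream of the TSS, in an intron. There were 3 L3MBTL3 peaks, and the one overlapping the RBPJ peak was the weakest. It had a fold of 4.78 (692913 to 693249, rank 349, -log10 q 4.65), the middle one 5.81 (693320 to 693420, 132 bp downstream) and the upstream one 6.42 (693558 to 693727, 126 bp upstream, rank 108). TPPP therefore had L3MBTL3 on both sides of its TSS and RBPJ only downstream.

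TPPP was the only gene of the 10 whose peaks contained a stretch of 50 bases found elsewhere in the genome with every letter the same. Copies with mismatches were not searched for at the other genes. In 29 of the 31 peaks every stretch of 50 bases occurred once on the assembled chromosomes. In the overlapping L3MBTL3 peak of TPPP 58.7% of 288 stretches occurred once, and the other 119 occurred in 2 places. In the RBPJ peak 94.1% of 118 stretches occurred once. The second place (chromosome 5, 784332 to 784639) lies 91.4 kb away near a TSS of ZDHHC11B and is 97.7% identical over 308 bp. It holds 1 high-affinity word as the TPPP stretch does, had an L3MBTL3 peak over it (784279 to 784567, fold 6.70, -log10 q 7.10), and had no RBPJ peak. The sources used here do not say how reads that align in 2 places were treated, and their part in the fold of 4.78 was not tested. In the other TPPP L3MBTL3 peaks every stretch of 50 bases occurred once.

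A second high-affinity word at TPPP lay upstream of the TSS, in the line below. It was 5 bp outside the upstream L3MBTL3 peak and 652 bp from the RBPJ peak.
TPPP, chr5:693721-693750, plus strand: gacccgcgggtCGTGGGAAccgctgggcag

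DCLK2 encodes a microtubule-binding kinase of the doublecortin family (ENSG00000170390.16, chromosome 4, plus strand). It had the lowest RBPJ fold of the 10 and, after SIPA1L2, the highest L3MBTL3 fold. Its L3MBTL3 peak (150999320 to 150999867, fold 10.8, -log10 q 15.2) was 548 bp wide and ranked 5 of 444. Inside it lay 3 separate RBPJ peaks of 62 to 87 bp, with folds of 5.34 (150999421 to 150999499), 6.88 (150999557 to 150999643) and 4.58 (150999704 to 150999765) and ranks of 1116, 200 and 2074. Their summits lay 157 bp upstream, 5 bp upstream and 141 bp downstream of the TSS. No core word lay within 100 bp of the strongest RBPJ summit, and the nearest high-affinity word was 2377.5 bp away.

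**Figure D2:**
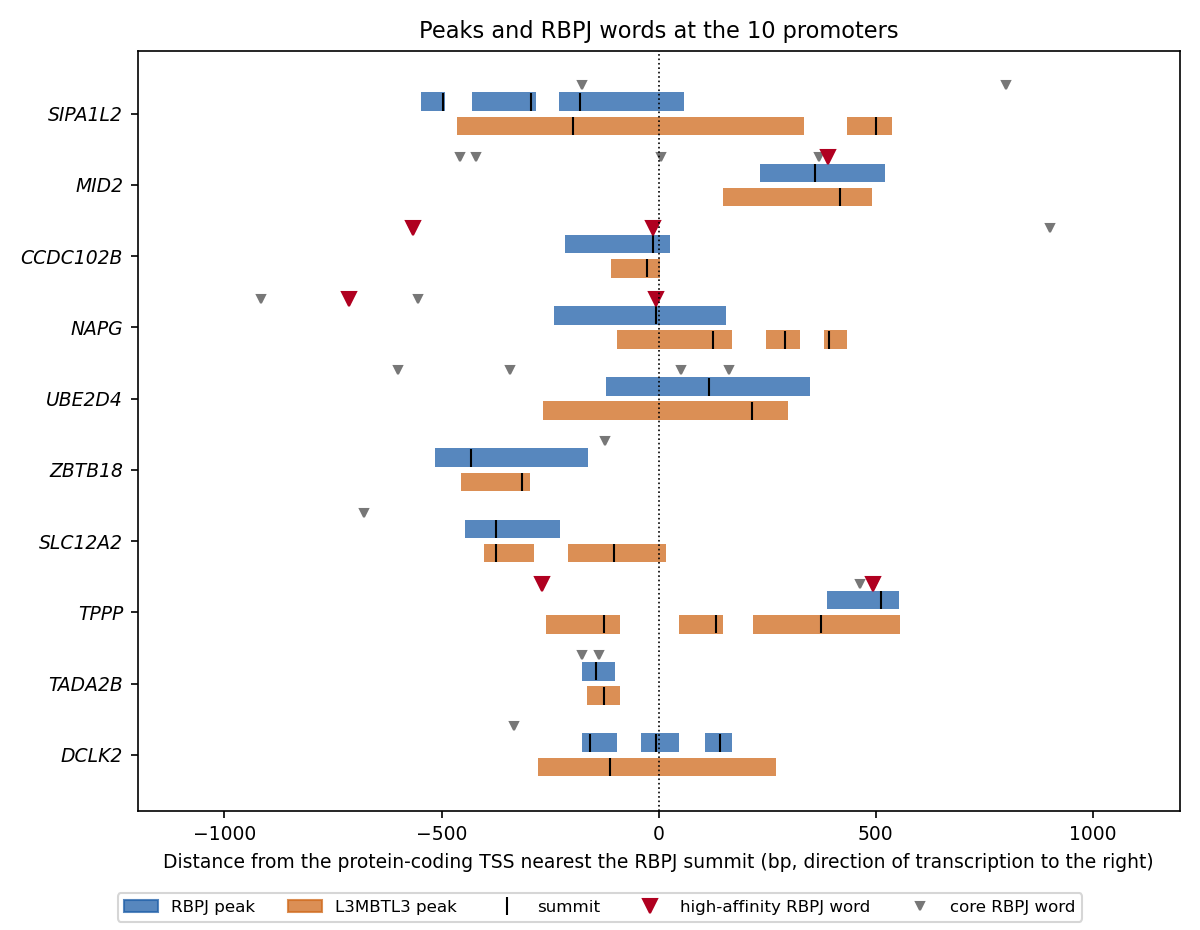
Map of the RBPJ (blue) and L3MBTL3 (orange) peaks at the 10 promoters, in bp from the protein-coding TSS nearest the strongest overlapping RBPJ summit, with transcription to the right. Black ticks are summits, large red triangles high-affinity RBPJ words and small grey triangles core words within 1 kb of that summit (a core inside a high-affinity word is hidden under it). At MID2, CCDC102B, NAPG and TPPP a red triangle lies beside the RBPJ summit, and at DCLK2 3 RBPJ peaks lie inside 1 L3MBTL3 peak.

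Of the genes with roles in transport and signalling, SIPA1L2 had the strongest L3MBTL3 peak of the whole list. SIPA1L2 encodes a GTPase-activating protein for Rap, studied mainly in neurons (ENSG00000116991.12, chromosome 1, minus strand). The L3MBTL3 peak (232765546 to 232766344, fold 14.5, -log10 q 26.4) was 799 bp wide, the widest of the set. It covered 2 RBPJ peaks, with folds of 10.3 (232765821 to 232766108, -log10 q 16.4, rank 20) and 6.08 (232766162 to 232766309, -log10 q 5.94, rank 497). The summit of the stronger RBPJ peak was 16 bp from that of L3MBTL3. Weaker peaks flanked them: RBPJ with a fold of 4.08 (232766373 to 232766427) 28 bp beyond the edge of the L3MBTL3 peak, and L3MBTL3 with a fold of 5.54 (232765342 to 232765446). The gene has 7 annotated protein-coding TSS, 5 of them within 407 bp of each other here, so the summits count as intronic for transcripts from the outermost starts. The nearest high-affinity word was 1143.5 bp from the RBPJ summit.

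NAPG encodes gamma-SNAP, an adaptor of the machinery that takes SNARE complexes apart after membrane fusion (ENSG00000134265.13, chromosome 18, plus strand). Its 1 RBPJ peak (10525782 to 10526177, fold 9.78, -log10 q 17.2, rank 23) had its summit 6 bp upstream of the protein-coding TSS, on the high-affinity word and in an exon of a non-coding transcript of the gene. L3MBTL3 had 3 peaks that ran downstream from there. Their folds were 7.97 (10525927 to 10526192, rank 19), 7.87 (10526272 to 10526349, rank 23) and 4.89 (10526404 to 10526456, rank 335), and only the first overlapped the RBPJ peak. A gap of 94 bp lay between the RBPJ peak and the second. The L3MBTL3 summit of the overlapping pair was in a coding exon, 130 bp downstream of the RBPJ summit.

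SLC12A2 encodes NKCC1, which carries sodium, potassium and chloride into the cell (ENSG00000064651.14, chromosome 5, plus strand). The summits of the overlapping pair were 1 bp apart, the closest of the set, with folds of 8.43 for RBPJ (127419013 to 127419229, rank 55 of 2926) and 7.08 for L3MBTL3 (127419056 to 127419169, rank 55 of 444). They lay 374 and 375 bp upstream of the TSS, outside the gene. The stronger L3MBTL3 peak was a further one (127419250 to 127419475, fold 7.97, rank 20), 20 bp beyond the RBPJ peak and 103 bp upstream of the TSS. The TSS of SLC12A2-DT, a long non-coding RNA transcribed the other way, was 220 bp from the RBPJ summit and thus nearer than that of SLC12A2. The nearest high-affinity word was 8718.5 bp away, the farthest of the 10.

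UBE2D4 encodes a ubiquitin-conjugating enzyme (ENSG00000078967.13, chromosome 7, plus strand). It had 1 broad peak of each protein, 471 bp wide for RBPJ (43965993 to 43966463, fold 9.29, -log10 q 12.1, rank 36) and 565 bp wide for L3MBTL3 (43965848 to 43966412, fold 7.13, -log10 q 10.7, rank 53). They overlapped over 420 bp, the longest overlap of the set. The summits lay in an intron, 115 and 215 bp downstream of the nearest TSS and 100 bp from each other. The promoter is shared with URGCP, a gene linked to cell growth that is transcribed the other way from a TSS 105 bp away, inside both peaks.

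Of the genes of transcription, ZBTB18 encodes a zinc finger repressor needed in the developing brain (ENSG00000179456.12, chromosome 1, plus strand). Its RBPJ peak (244211335 to 244211685, fold 8.60, -log10 q 9.75, rank 48) contained its whole L3MBTL3 peak (244211394 to 244211551, fold 6.08, -log10 q 3.90, rank 136). The summits, 117 bp apart, were 432 and 315 bp upstream of the outermost TSS and 3168 and 3051 bp upstream of the canonical one. Both lay inside a long non-coding RNA gene, ENSG00000289055, whose TSS was 130 bp from the RBPJ summit and nearer than that of ZBTB18. No core word lay within 100 bp of the RBPJ summit. The relaxed RBPJ word, which allows A or G at the second and A, G or T at the fifth letter, matched there as CGTGAGAA. With the 4 high-affinity sites, 5 of 10 windows held the relaxed word, against 32.6% of the 86 other RBPJ promoter peaks with a fold of at least 6.88, 20.4% of the 93 overlapping RBPJ promoter peaks of other genes and 9.75% of all RBPJ promoter windows.

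TADA2B encodes an adaptor subunit of the SAGA histone acetyltransferase complex (ENSG00000173011.12, chromosome 4, plus strand). Its pair was the narrowest, with 77 bp for each peak. The RBPJ peak (7044922 to 7044998, fold 7.83, -log10 q 8.08) ranked 83, and the L3MBTL3 peak (7044934 to 7045010, fold 5.42, -log10 q 2.72) ranked 239. The summits were 18 bp apart and 145 and 127 bp upstream of the canonical TSS, in an intron of transcripts from an earlier start and within a long non-coding RNA gene, ENSG00000245748. CCDC96, a gene of cilia, is transcribed the other way from a TSS 371 bp from that of TADA2B. TADA2B also had the 1 distal peak of the set, an RBPJ peak 19.4 kb upstream in TBC1D14 (7024166 to 7024286, fold 5.41, -log10 q 3.35, rank 1064) with no L3MBTL3 peak. It is shown because it carried the high-affinity word that the promoter lacked, here as TGTGGGAA.
TADA2B distal peak, chr4:7024253-7024282, plus strand: gacacacagcaTGTGGGAAgagcctgcagg

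Beyond 20 kb, further peaks were sought up to 500 kb from a TSS. Within 500 kb, the next RBPJ peaks were 166 kb from a TSS of TADA2B, 197 kb from UBE2D4 and 198 kb from ZBTB18, and the next L3MBTL3 peak was that near ZDHHC11B, 91.1 kb from TPPP. No other protein-coding TSS lay within 20 kb of those of SIPA1L2, MID2, NAPG, ZBTB18, SLC12A2, TPPP and DCLK2. The shares of all genes with no further peak or no other TSS at these distances were not computed.

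Seen together, the peaks had no common layout around the TSS. The strongest overlapping RBPJ summit lay upstream of the nearest TSS at 7 genes and downstream at 3, within 511 bp at all 10. The side depends on the TSS used. At SIPA1L2, CCDC102B and TADA2B this summit was upstream of the nearest TSS but downstream of the outermost one. The L3MBTL3 summit lay downstream of the RBPJ summit, along the gene, at 5 genes and upstream at 5. With 1 pair per gene, summits were 1 to 137 bp apart with a median of 79 bp, within 20 bp at 4 genes and 100 bp or more apart at 5. Over all 13 overlapping pairs near these genes the median was 96 bp, against 53 bp (quartiles 24 and 108) over all 133 overlapping pairs of the lists. The 133 include the 13, and the L3MBTL3 peaks of SIPA1L2 and DCLK2 each enter several pairs. The strongest peaks of the 10 genes had median widths of 264.5 bp (RBPJ) and 246 bp (L3MBTL3). All overlapping peaks had medians of 141.5 and 122 bp. The part of width in the summit distance was not tested. The L3MBTL3 peak was the wider at 5 genes, the RBPJ peak at 4, and TADA2B had equal widths.

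Several peaks of 1 protein lay near some of the genes. SIPA1L2, NAPG, SLC12A2 and TPPP, 4 of 10 genes, had 2 or more L3MBTL3 summits within 20 kb, against 0.658% of all protein-coding genes and 40.5% of the 131 other genes with an overlapping pair within that distance. SIPA1L2, TADA2B and DCLK2, 3 of 10, had 2 or more RBPJ summits, against 3.71% of all genes and 54.2% of the 131. No test of these differences was made. The counts depend on how peaks are split: with peaks of 1 protein within 300 bp merged, 0 of the 10 genes had several L3MBTL3 peaks and 1 (TADA2B) several RBPJ peaks. At a -log10 q of at least 5, NAPG and SLC12A2 kept 2 L3MBTL3 peaks and SIPA1L2 2 RBPJ peaks. Of the 16 L3MBTL3 peaks 6 overlapped no RBPJ peak, and these lay 20 to 477 bp from the nearest one. Of the 15 RBPJ peaks 2 overlapped no L3MBTL3 peak, those of SIPA1L2 and of TADA2B named above.

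High folds of both proteins went together only loosely. Over the 133 overlapping pairs of the lists, Spearman's rho between the RBPJ and L3MBTL3 folds was 0.22 and Pearson's r was 0.26. Pairs at 1 promoter share a peak, so this is a description. SIPA1L2 was high in both, at 2.02 times the RBPJ and 2.60 times the L3MBTL3 list median. CCDC102B was at 2.08 and 1.15 times, TPPP at 1.58 and 0.859 times, and DCLK2 at 1.36 and 1.94 times.

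**Figure D3:**
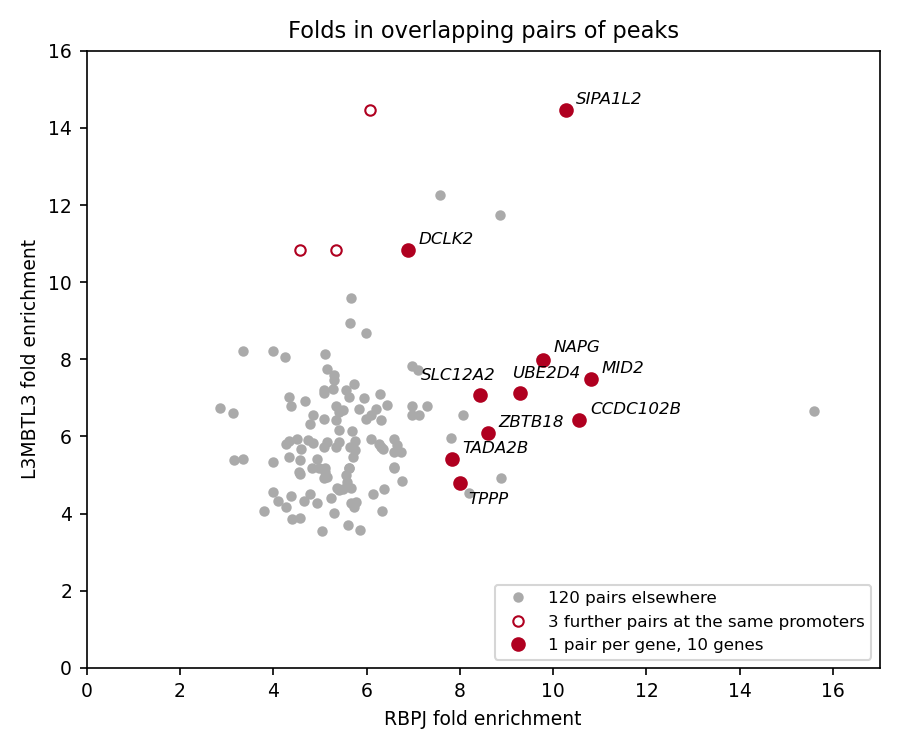
RBPJ fold against L3MBTL3 fold for the 133 overlapping pairs of peaks, each axis on a linear scale from 0. Filled red points are the strongest pair of each of the 10 genes, open red points 3 further pairs at SIPA1L2 and DCLK2, and grey points the 120 pairs elsewhere. SIPA1L2 is high in both proteins, DCLK2 has the lowest RBPJ and the second highest L3MBTL3 fold of the filled points, and TPPP the lowest L3MBTL3 fold.

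The RBPJ words were set beside those of other promoters, searched on both strands in windows of 201 bp centred on the summit or TSS. The high-affinity word was in 4 of 10 windows (40%). It was in 5.60% of 1876 windows at RBPJ promoter peaks, those within 1 kb of a TSS, and in 11.8% of the 93 windows at overlapping RBPJ promoter peaks of other genes. It was in 24.4% of the 86 other RBPJ promoter peaks with a fold of at least 6.88, and in 1.46% of 78394 protein-coding TSS windows. The core was in 7 of 10 windows (70%), against 21.5%, 26.9%, 47.7% and 14.8% in the same order. Both words had their highest shares in the 10 promoters and their next highest in the strong RBPJ peaks of other genes. The floor of 6.88 for those peaks is the lowest strongest fold of the 10 genes, whose median was 8.95. They are therefore not matched in fold, and the part of fold in these shares was not tested. With 10 promoters chosen by fold, no test of these differences was made.

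All 4 high-affinity words were CGTGGGAA. In the RBPJ promoter windows this form was in 3.78% and TGTGGGAA in 1.81%, and over all TSS windows the order was the other way, with 0.504% and 0.962%. In the other RBPJ promoter peaks with a fold of at least 6.88 the shares were 19.8% and 4.65%. The median GC content was 71.6% in the RBPJ promoter windows and 63.2% in the TSS windows. The part of base composition in this order was not tested. A high-affinity word within 50 bp of the RBPJ summit was found at 4 of 10 genes, against 3.46% of RBPJ promoter peaks. Of the 106 promoter peaks that overlap L3MBTL3, 9 (8.49%) had one. These 106 include the peaks of the 10 genes, which give 4 of the 9. The share was not computed for the strong RBPJ peaks of other genes.

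The presence of the word alone did not mark the bound position. Within 1 kb of the strongest overlapping RBPJ summits there were 7 high-affinity words, at the same 4 genes. The 4 printed first lay in peaks of both proteins, and 3 lay in no peak of either: that of TPPP upstream of its TSS, 1 at CCDC102B 552.5 bp from the RBPJ summit and 1 at NAPG 707.5 bp from it. Of 27 core words in the same windows, 10 lay in peaks of both proteins and 17 in neither. The 17 include a core at TADA2B that crosses the edge of the RBPJ peak, 32.5 bp from its summit.

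**Figure D4:**
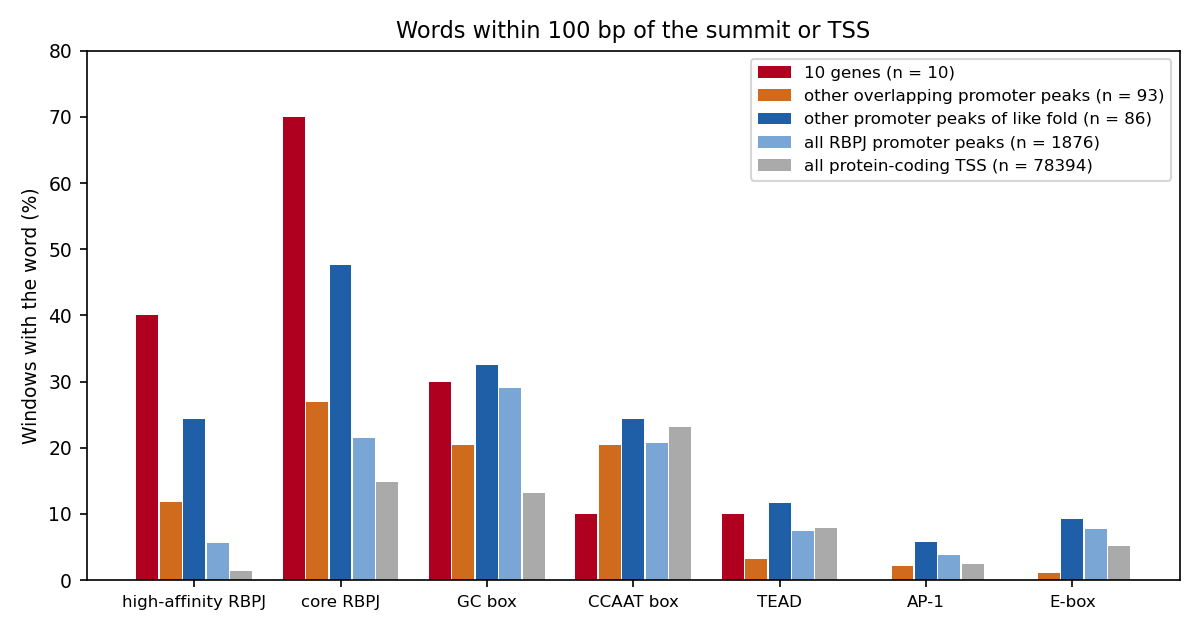
Percent of 201 bp windows that hold each word on either strand, for the 10 genes (red, RBPJ summit), overlapping RBPJ promoter peaks of other genes (orange), other RBPJ promoter peaks with a fold of at least 6.88 (dark blue), all RBPJ promoter peaks (light blue) and all protein-coding TSS (grey). The red bars are 40% for the high-affinity and 70% for the core RBPJ word, and 0 for the AP-1 and E-box words, where each red step of 10% is 1 gene.

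Words of other factors were also counted in the 10 windows. The GC box GGGGCGGGG, a site of SP and KLF factors, was in 3 (SIPA1L2, MID2 and TADA2B), against 29.0% of RBPJ promoter windows. The CCAAT box CCAAT, a site of NF-Y, was in 1 (SIPA1L2), against 20.7%. The TEAD word GGAATG was in 1 (TPPP), against 7.46%, and the RUNX word TGTGGTT in 1 (ZBTB18), against 1.65%. The AP-1 words TGACTCA and TGAGTCA, the E-box CACGTG, the CRE TGACGTCA and the ETS word ACCGGAAGT were in 0 of 10, against 3.78%, 7.73%, 2.03% and 0.853%. With 10 windows a single promoter changes each share by 10%, so no difference from other promoters was called.

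All 10 promoters were rich in CpG. In 1 kb centred on the TSS, the ratio of observed to expected CpG was 0.792 (ZBTB18) to 1.02 (TADA2B) with a median of 0.893, and above 0.6 in all 10. The median was 0.829 at RBPJ promoter peaks, of which 94.5% were above 0.6, and 0.666 at all protein-coding TSS, of which 56.4% were. The GC content of the RBPJ windows was 61.2% (CCDC102B) to 81.1% (TADA2B), with a median of 69.9%, against 71.6% at all RBPJ promoter peaks.

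Of the 10 promoters 6 were bidirectional, with a gene of the opposite strand starting within 1 kb upstream and leading away. The partner encodes a protein at CCDC102B (TMX3), UBE2D4 (URGCP) and TADA2B (CCDC96). It is a long non-coding RNA at ZBTB18 (302 bp between the TSS), SLC12A2 (594 bp) and TPPP (141 bp). By the same rule 33.6% of RBPJ promoter peaks and 40.6% of the 106 overlapping ones were at bidirectional promoters. The 106 include the peaks of the 10 genes. At SIPA1L2, MID2, NAPG and DCLK2 no such partner was annotated. Which gene a peak acts on was not tested at any of the 10 promoters.

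A list of 49 relatives of the 10 genes, paralogues or partners of the encoded proteins, was examined, and 8 (16.3%, against 14.2% of all genes) had an RBPJ summit and 3 (6.12%, against 1.91%) an L3MBTL3 summit within 20 kb. An overlapping pair was found at 0 of the 49, against 0.714% of all genes, a share too low for this count to say anything of the relatives. RBPJ peaks were at the promoters of UBE2D3 (fold 5.66, 199 bp upstream), NAPA, which encodes alpha-SNAP (5.61, 534 bp upstream), TAF6L of the SAGA complex (6.33, 297 bp upstream), SLC12A5, which encodes the chloride exporter KCC2 (4.67), and TADA2A (5.42, nearer to a TSS of ACACA). SIPA1 had a peak at its promoter (4.12, 48 bp upstream) and a stronger one 12663 bp from a TSS and nearer to RELA (5.56). The peak of UBE2D2 (4.53) was 8237 bp from a TSS. L3MBTL3 peaks were at ZBTB42, the closest relative of ZBTB18 (fold 5.34, 185 bp downstream), and at TAF5L of the SAGA complex (6.22, 9 bp upstream). ATXN7L3 of the SAGA complex had both proteins at its promoter in peaks that did not overlap, RBPJ 122 bp upstream (fold 5.56) and L3MBTL3 185 bp downstream (4.89). Stronger peaks within 20 kb of it lay at TMUB2 (RBPJ, 6.37) and UBTF (L3MBTL3, 5.68). No relative of MID2, CCDC102B, TPPP or DCLK2 in the list had a peak of either protein within 20 kb. The list held 1, 1, 2 and 4 such relatives, too few for this to say anything of them.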

How the data were processed

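Peak lists of 1 RBPJ and 1 L3MBTL3 ChIP-seq library were used as deposited. Per the labels' protocols, Trimmomatic removed adaptors and BWA 0.7.15 placed the reads on hg19. The submitters' processing notes name MACS2 as a tool; which version, cutoff or control it used is unknown here. For each peak the authors deposited a fold enrichment (a ratio to background at the peak's highest point), a -log10 p, a -log10 q and the position of that point. The deposited score equals 10 times the -log10 q, truncated, for all 2926 and 444 peaks and was not used further. Folds were compared within a list.

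Coordinates are 1-based in hg19. Sequence came from GRCh37 and genes from GENCODE 44 mapped to it (chromosomes 1 to 22 and X, 19748 protein-coding genes). All peaks end within the chromosomes of that sequence. Peaks overlapped if they shared at least 1 bp. Analysis used Python 3.11.15, pandas 2.3.3 and pysam 0.24.0, and word search and overlap were tested on simulated data. The genes, the related genes and the words were chosen with earlier results of these data known. The text names all 10 genes, their promoter neighbours and related genes with a peak. No test was run. Alternatives varied the q cutoff, distance, overlap, words, windows and partners. Intervals are not given, since read counts behind peaks are unknown.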

Additional observations from a re-analysis of the deposited data

How the results depend on the processing

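No paired analysis was possible because each antibody had 1 library and no result comes from a test. All 10 genes kept peaks of both proteins at every distance from 1 to 50 kb and with the outermost TSS alone. When both peaks had to reach a -log10 q of 3, 9 genes kept them, and 7 did at 5. At that stricter value, 6 of 10 genes had an overlapping pair (SIPA1L2, MID2, NAPG, UBE2D4, SLC12A2 and DCLK2). The L3MBTL3 peaks near the genes fell from 16 to 9 at a q of 5, and merging peaks within 300 bp left 10. The high-affinity word was in 2 windows when these were centred on L3MBTL3 summits (MID2 and CCDC102B), and in 4 or 5 under the other settings. The median summit distance was 79 bp with 1 pair per gene, and 56.5 bp between peak centres. By -log10 q in place of fold, the strongest peaks had medians of 11.2 (RBPJ) and 7.03 (L3MBTL3). With protein-coding partners only, 3 promoters were bidirectional. At a -log10 q of at least 5, 2 related genes kept an RBPJ peak and 0 an L3MBTL3 peak. In 4 alternatives chosen after seeing the data, the genes with several L3MBTL3 peaks fell from 4 to 0 with peaks merged and to 2 at a -log10 q of 5, and those with several RBPJ peaks from 3 to 1 in either case. The other 32 of 47 alternatives stayed within 1.5 times the reported count or gave the same value. A single library per antibody and unknown read counts limit every fold.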
